A study of Homo sapiens with 7 samples.

Results

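Titin, cardiac myosin-binding protein C and the proteins of the M-band were examined as 6 genes, found by their symbols with no threshold on a measured value, out of 60234 genes in the deposited expression table. The genes are TTN, MYBPC3, MYOM1, MYOM2, MYOM3 and OBSL1, and each symbol matched 1 row. Poly-A selected RNA was sequenced from cardiomyocytes grown from WTC-11, an established human induced pluripotent stem cell line. All cultures had been matured for 35 days and then exposed passively for 96 h, at 2 uM, to an ASO (antisense oligonucleotide), a short strand designed to bind 1 target transcript. The 3 control libraries received a scrambled ASO. The 4 libraries labelled anti-MYH7b ASO, called MYH7B ASO here, received one directed at the MYH7B transcript. The values are TPM, an abundance per transcript length relative to all transcripts of a library. The labels do not say whether libraries of a group came from separate differentiations, so p-values measure only the spread between these samples, which may be technical.

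The sarcomere is the contractile unit of striated muscle. Titin spans from the Z-disc to the M-band and acts as its spring and scaffold, and cardiac myosin-binding protein C decorates the myosin filament in the A-band and tunes cross-bridge activity. Myomesins cross-link myosin filaments and titin at the M-band, where OBSL1 also binds titin and myomesin 1.

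MYH7B was lower in every MYH7B ASO library. The target transcript was listed at 23.0, 36.5 and 25.1 TPM in the 3 controls, against 9.30, 5.65 and 6.31 TPM in MYH7B ASO replicates 2 to 4 (log2 fold change -1.85, limma adjusted p = 0.0109). The limma adjusted p of MYH7B was 0.0618 without MYH7B ASO replicate 4 and 0.0525 with 7 libraries. The column of MYH7B ASO replicate 1 was not in the row order of the others. It was placed in the order of another annotation release and is given beside the results but kept out of the main comparison of 3 with 3 libraries. The gene models of MYBPC3, MYOM2, MYOM3 and OBSL1 differ in version between that release and the deposited table. Their levels in replicate 1, and fits with 7 libraries, may thus not compare like with like. Each of the 6 libraries of the main comparison had 15290 to 16207 genes at 1 TPM or more. Cardiomyocyte markers summed to 3842 to 4691 TPM with the scrambled ASO and 3214 to 3985 TPM with the MYH7B ASO, and all 8 averaged at least 1 TPM. MYH6, a large part of that sum, averaged 1169 and 1272 TPM. None of the 8 was called. For 5 of them the groups did not overlap downward, as for 14.1% of all tested genes, and for 0 upward. Their median log2 fold change was -0.46, beside -0.044 for all tested genes. Of 8 skeletal muscle markers, 7 averaged under 1 TPM, and MYF5 and MYH8 were listed at 0 in all 6 libraries. The 8 fibroblast markers summed to 2901 to 5245 TPM with the scrambled ASO and 1354 to 2084 TPM with the MYH7B ASO. Most of that sum was collagen from COL1A1, COL1A2 and COL3A1. COL1A2 and LUM of that list were called lower (limma adjusted p = 0.0343 and 0.0489), beside 1.48% of all tested genes. Each was called in 1 of the 6 fits that left out a library. Of the 8 fibroblast markers, 7 had a negative log2 fold change. For 5 the groups did not overlap downward, beside 14.1% of all tested genes. Their median log2 fold change was -1.02, beside -0.044 for all tested genes. With 7 libraries, 0 did not overlap downward and the median was -0.70. PDGFRA, a fibroblast receptor, averaged 23.7 TPM in the controls and 36.3 TPM with the MYH7B ASO (limma adjusted p = 0.152). Its groups did not overlap upward, as for 7.11% of all tested genes. The 6 smooth muscle markers summed to 795 to 1213 TPM and 615 to 662 TPM. A large part of that sum was DES, which is also in the list of titin-binding partners below. DES averaged 368 and 272 TPM (limma adjusted p = 0.325). MYH11, smooth muscle myosin, and ACTG2, a smooth muscle actin, were called lower, beside the same 1.48% of all tested genes. Their log2 fold changes were -2.41 and -2.02 (limma adjusted p = 0.00599 and 0.0173). MYH11 was called in all 6 fits without a library and ACTG2 in 2. Of the 6 smooth muscle markers, 5 had a negative log2 fold change, and for 5 the groups did not overlap downward, beside 14.1% of all tested genes. Their median log2 fold change was -0.82, and -0.63 with 7 libraries. CNN1, with a positive one, averaged 182 and 215 TPM (limma adjusted p = 0.454). None of the fibroblast or smooth muscle markers was listed at 0 throughout, and the part of these cells in the results below was not tested. In bulk RNA, fewer cells of a type and less RNA per cell cannot be told apart.

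Myomesin 2, encoded by MYOM2 (ENSG00000036448.10, chromosome 8, 2045040 to 2165552, plus strand), is the myomesin of fast skeletal and adult heart muscle. The controls had 51.8, 43.5 and 52.5 TPM of MYOM2, in the order of their replicate numbers. MYH7B ASO replicates 2 to 4 had 12.7, 12.4 and 21.1 TPM, so every library of the second group lay far below the first. The reordered MYH7B ASO replicate 1 had 9.11 TPM, the lowest level of the 7, with a gene model of another version. The mean fell from 49.3 ± 4.997 TPM to 15.4 ± 4.96 TPM (SD, n = 3 each), 3.20-fold lower. On the log2 scale this was -1.65 (standard error 0.22, 95% interval from -2.15 to -1.15; limma adjusted p = 0.0115). Without scrambled ASO replicate 1 or MYH7B ASO replicate 2 the limma adjusted p was 0.0517 or 0.0509, just above the threshold of 0.05. In the authors' deposited table MYOM2 stood at -1.28 on the log2 scale (adjusted p-value 1.47e-08). Fold changes there are labelled as shrunken, so their sizes, here and below, are not like for like with those from limma. The direction of that table was read here from the sign of MYH7B. It belongs to the same series, so it is not independent, and which libraries it used is not given in the sources used here.

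Myomesin 1, encoded by MYOM1 (ENSG00000101605.12, chromosome 18, 3066807 to 3220108, minus strand), is the main myomesin of all striated muscle. The controls had 127, 152 and 116 TPM of MYOM1. MYH7B ASO replicates 2 to 4 had 77.2, 54.0 and 66.4 TPM, and the groups did not overlap. The reordered replicate 1 had 30.3 TPM. The mean fell from 131.8 ± 18.4 TPM to 65.8 ± 11.6 TPM (SD, n = 3 each), 2.00-fold lower. On the log2 scale this was -0.996 (standard error 0.17, 95% interval from -1.39 to -0.60; limma adjusted p = 0.0316). This call rested on all 6 libraries. It was lost when any 1 of them was left out, with limma adjusted p from 0.0529 (without MYH7B ASO replicate 2) to 0.129 (without MYH7B ASO replicate 4) and log2 fold changes from -1.12 to -0.86. With the reordered replicate 1 added the log2 fold change was larger, -1.27, but its limma adjusted p was 0.0918. MYOM1 stood at -0.83 on the log2 scale in the authors' deposited table (adjusted p-value 1.89e-05).

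MYOM3 (ENSG00000142661.19, chromosome 1, 24056035 to 24112175, minus strand) encodes myomesin 3, a form of skeletal muscle. It was barely present, at 0.61, 0.11 and 0.24 TPM in the 3 controls and 0.24, 0.057 and 0.092 TPM in MYH7B ASO replicates 2 to 4. It averaged under the minimum of 1 TPM and was not tested.

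Of the 5 tested genes, the 2 myomesins fell, and titin, myosin-binding protein C and OBSL1 did not pass. Of all 15988 genes tested, 1.48% were called lower, 0.181% higher and 1.66% in either direction at a limma adjusted p under 0.05. The groups did not overlap downward for 14.1% of all tested genes, as for MYOM1 and MYOM2, upward for 7.11%, as for OBSL1, and in either direction for 21.2%. With the reordered replicate 1 these 3 members still did not overlap, as for 10.2% of all genes downward, 4.7% upward and 14.9% in either direction. Of 15527 genes with an adjusted p-value in the authors' deposited table, 8.71% had one under 0.05, with 5.69% lower, and MYOM1 and MYOM2 were the called members. With 7 libraries 1 member was called, MYOM2 (log2 fold change -1.82, limma adjusted p = 0.0140), against 0.967% of all tested genes called lower.

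**Figure D1:**
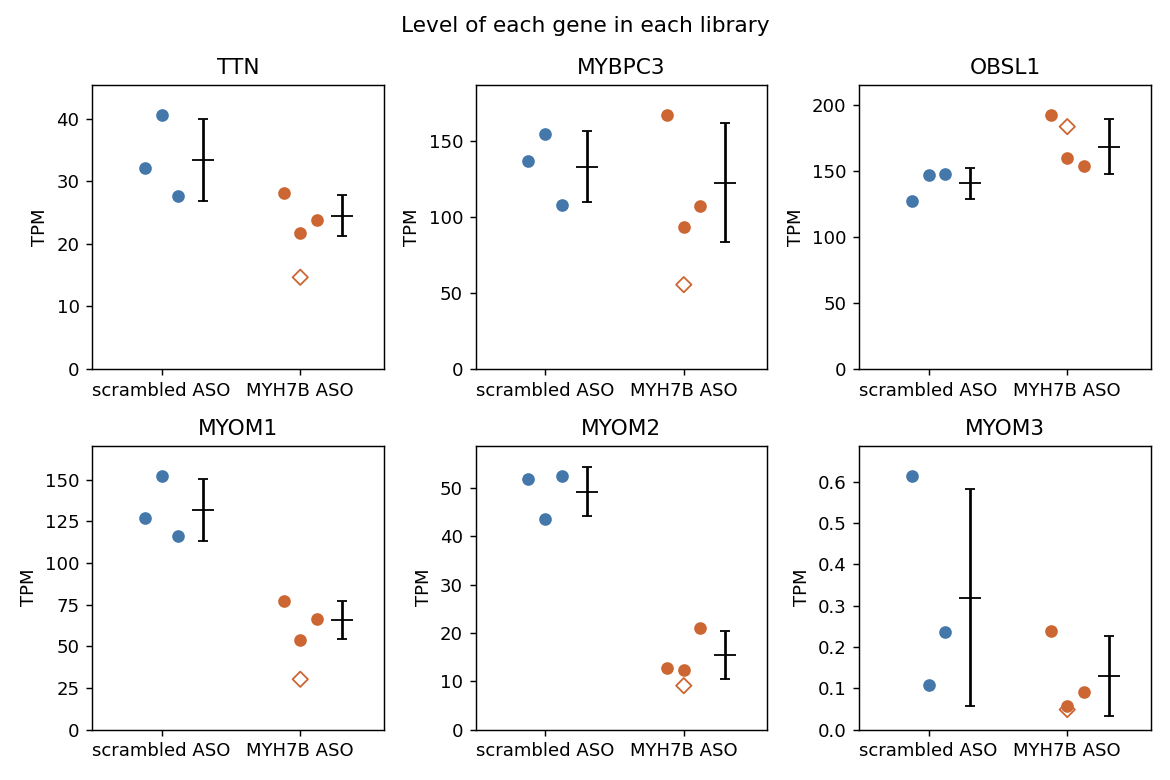
Level in TPM (vertical axes, starting at 0) of TTN, MYBPC3, OBSL1, MYOM1, MYOM2 and MYOM3 in each library. Filled points are the 3 scrambled ASO libraries and MYH7B ASO replicates 2 to 4, bars are their mean ± SD (n = 3), and the open diamond is the reordered MYH7B ASO replicate 1. MYOM2 sat at 43.5 to 52.5 TPM with the scrambled ASO and 12.4 to 21.1 TPM with the MYH7B ASO, while the MYBPC3 and TTN groups overlapped.

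Titin is encoded by TTN (ENSG00000155657.26, chromosome 2, 178525989 to 178830802, minus strand), whose longest coding transcript in GENCODE 29 has 363 exons and 109224 bases. The 3 controls had 32.1, 40.6 and 27.7 TPM of TTN, against 28.1, 21.7 and 23.8 TPM in MYH7B ASO replicates 2 to 4. The groups overlapped, since MYH7B ASO replicate 2 lay above scrambled ASO replicate 3. The reordered replicate 1 had 14.7 TPM, below all others. The mean was 33.4 ± 6.54 TPM and 24.5 ± 3.27 TPM (SD, n = 3 each). The log2 fold change of -0.42 (standard error 0.18, 95% interval from -0.84 to -0.0020) did not pass (limma unadjusted p = 0.0492, adjusted p = 0.325). At an unadjusted p under 0.05 stood 15.2% of all tested genes. TTN stood at -0.34 in the authors' deposited table (adjusted p-value 0.190).

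TTN-AS1, an annotated antisense gene, covers most of the TTN locus from the other strand (178521183 to 178779963), and whether counting used strand is not given in the sources used here. Reads of TTN and TTN-AS1 can then not be told apart with certainty. TTN-AS1 was at 134, 131 and 121 TPM in the controls and at 118, 85.5 and 77.3 TPM in MYH7B ASO replicates 2 to 4. All 3 of the latter were lower, with a log2 fold change of -0.48 that did not pass (limma adjusted p = 0.235). In the reordered replicate 1 TTN-AS1 was at 3.49 TPM, and its gene model differs in version between the annotation of that order and the deposited table. RBM20, the splicing factor that sets titin isoforms, was at 11.7, 20.2 and 13.4 TPM and at 10.02, 10.6 and 9.74 TPM, a log2 fold change of -0.50 (limma adjusted p = 0.315).

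MYBPC3 (ENSG00000134571.11, chromosome 11, 47331397 to 47352702, minus strand) encodes cardiac myosin-binding protein C. Its transcript was at 137, 155 and 108 TPM in the controls and at 167, 93.2 and 107 TPM in MYH7B ASO replicates 2 to 4. The MYH7B ASO group held both the highest and the lowest of these 6 levels, and the reordered replicate 1 had 55.5 TPM. The mean was 133 ± 23.5 TPM and 122 ± 39.1 TPM (SD, n = 3 each). The log2 fold change of -0.15 had a 95% interval from -0.68 to 0.38 (limma adjusted p = 0.804). This interval overlapped that of MYOM1, from -1.39 to -0.60, and a difference between MYBPC3 and MYOM1 was not tested. Without MYH7B ASO replicate 3 the difference changed sign to 0.022. Its skeletal relatives were low: MYBPC1 averaged 0 and 0.013 TPM and MYBPC2 1.88 and 1.22 TPM in the 2 groups. MYBPHL, a myosin-binding protein H relative found in atrial muscle, averaged 24.1 and 22.4 TPM (limma adjusted p = 0.962).

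OBSL1 (ENSG00000124006.15, chromosome 2, 219550729 to 219571859, minus strand) encodes a cytoskeletal adaptor that links titin and myomesin. Its transcript was at 127, 147 and 148 TPM in the controls and at 192, 160 and 154 TPM in MYH7B ASO replicates 2 to 4. All 3 MYH7B ASO libraries were higher than all controls, and so was the reordered replicate 1 at 184 TPM. The mean was 141 ± 11.8 TPM and 168 ± 20.8 TPM (SD, n = 3 each). The log2 fold change of 0.26 had a standard error of 0.14 and a 95% interval from -0.063 to 0.57, and did not pass (limma adjusted p = 0.437). OBSL1 stood at 0.31 in the authors' deposited table (adjusted p-value 0.105). INHA, the inhibin alpha gene that overlaps OBSL1 on the other strand, was also higher in every MYH7B ASO library of the comparison, at 12.6, 11.9 and 8.42 TPM against 26.4, 15.3 and 15.7 TPM (limma adjusted p = 0.214), but it was at 6.76 TPM in the reordered replicate 1.

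The order of the levels differed between the groups. With the scrambled ASO, OBSL1, MYBPC3 and MYOM1 averaged 141, 133 and 132 TPM and did not differ beyond their spread. MYOM2 followed at 49.3 TPM, then TTN at 33.4 TPM, with MYOM2 above TTN in each of the 3 libraries. With the MYH7B ASO, OBSL1 at 168 TPM and MYBPC3 at 122 TPM led, MYOM1 stood apart at 65.8 TPM, and TTN at 24.5 TPM was above MYOM2 at 15.4 TPM. TTN was above MYOM2 in each of MYH7B ASO replicates 2 to 4 and also in the reordered replicate 1. MYOM3 came last in all 7 libraries. The order between genes rests on the transcript lengths behind the TPM, which are not given in the sources used here.

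Ratios within a library cancel any scaling between libraries, and 8 were compared. MYOM1 stood at 3.95, 3.75 and 4.21 times the TPM of TTN in the scrambled ASO libraries and at 2.75, 2.49 and 2.79 times in MYH7B ASO replicates 2 to 4. These groups were tight and well apart, with mean log2 ratios of 1.99 ± 0.083 and 1.42 ± 0.089 (SD, n = 3 each), a difference of -0.57. The exact permutation test over the 20 splits gave its smallest possible 2-sided p of 0.1 (0.4 after Benjamini-Hochberg adjustment over the 8 ratios). With the reordered replicate 1, at 2.06, the difference was -0.66 and the exact permutation p was 0.0286, the smallest for 35 splits (0.229 adjusted over the 8 ratios). MYOM1 was thus lower relative to titin in every MYH7B ASO library. With 6 libraries no ratio could pass the adjustment, since the smallest possible exact permutation p was 0.1. With the reordered replicate 1 none passed.

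MYOM2 relative to MYOM1 was 0.409, 0.286 and 0.451 in the scrambled ASO libraries and 0.164, 0.229 and 0.318 in MYH7B ASO replicates 2 to 4. The groups overlapped, so a steeper fall of MYOM2 than of MYOM1 was not separated from the spread (log2 difference -0.71, 2-sided exact permutation p = 0.2, 0.4 adjusted). MYOM2 made up 22.2% to 31.0% of summed myomesin TPM in the controls and 14.1% to 24.1% in MYH7B ASO replicates 2 to 4. MYBPC3 relative to TTN was 4.26, 3.82 and 3.91 against 5.94, 4.30 and 4.51, higher in all 3 MYH7B ASO libraries (log2 difference 0.29, exact permutation p = 0.1, 0.4 adjusted), but the reordered replicate 1, at 3.79, lay below the controls. A further 3 ratios, described next, also overlapped between the groups. TTN relative to ACTN2, the Z-disc cross-linker alpha-actinin 2, was 0.159, 0.181 and 0.159 in the controls and 0.186, 0.168 and 0.160 in MYH7B ASO replicates 2 to 4. These ranges overlapped, with a log2 difference of 0.044 (exact permutation p = 0.5). MYBPC3 relative to the summed main cardiac myosins MYH6 and MYH7 differed by 0.18 and MYBPC3 relative to cardiac troponin T (TNNT2) by 0.032 on the log2 scale (exact permutation p = 0.4 and 0.8). The 2 myosins in that sum differed in direction: MYH6 averaged 1169 and 1272 TPM and MYH7 962 and 394 TPM. Another 4 ratios were chosen after their values were seen and are given as a description. MYOM2 relative to TTN was 1.61, 1.07 and 1.90 in the controls and 0.452, 0.571 and 0.887 in MYH7B ASO replicates 2 to 4. OBSL1 relative to TTN was 3.96, 3.63 and 5.34, then 6.84, 7.36 and 6.45. MYOM1 relative to TNNT2 was 0.115, 0.118 and 0.0879, then 0.0587, 0.0579 and 0.0635. TTN relative to TNNT2 was 0.0291, 0.0315 and 0.0209, then 0.0214, 0.0233 and 0.0228, and overlapped between the groups.

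**Figure D2:**
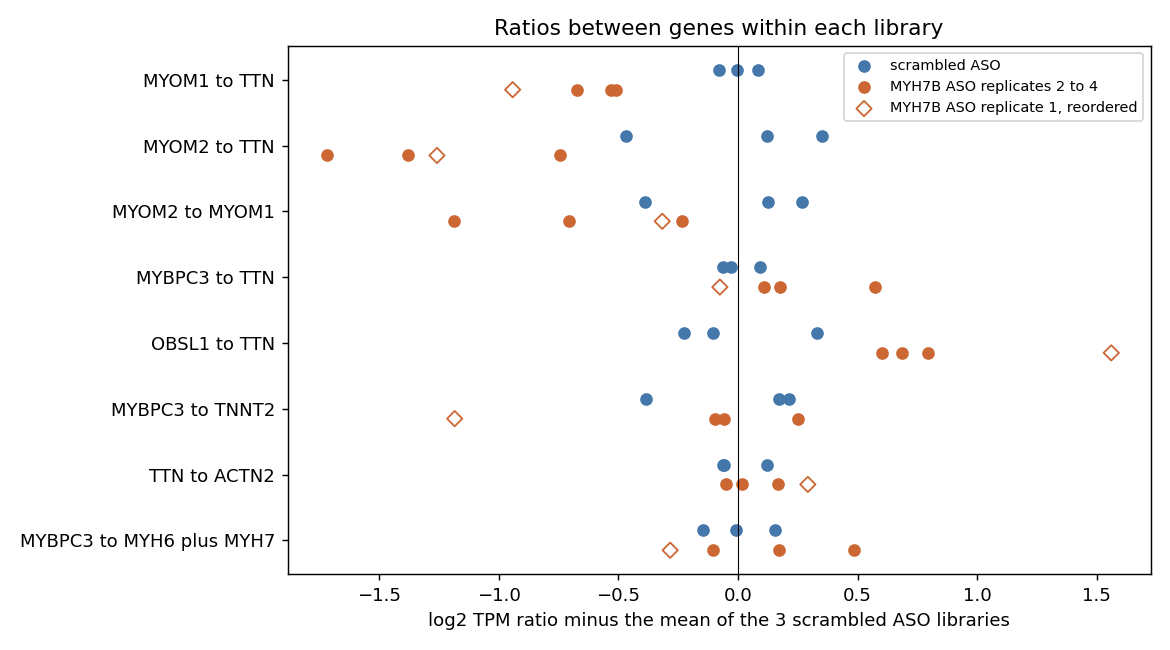
Log2 ratio of TPM between pairs of genes in each library (horizontal axis), drawn as the difference from the mean of the 3 scrambled ASO libraries. Filled points are the libraries of the comparison and open diamonds the reordered MYH7B ASO replicate 1. MYOM1 relative to TTN was lower in every MYH7B ASO library, at 1.42 ± 0.089 against 1.99 ± 0.083, while TTN relative to ACTN2 overlapped.

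Promoter sequences are shown for a myomesin that fell and for the 2 filament genes that did not pass, to set their control regions side by side. They are the 250 bases before the RefSeq start of each gene (GRCh38.p14, minus strand of the chromosome, written 5′ to 3′ along the gene), at chr18:3219969-3220218 for MYOM1, chr2:178807424-178807673 for TTN and chr11:47352703-47352952 for MYBPC3. Capitals mark matches to the CArG box, bound by serum response factor, in MYOM1 and to the MEF2 box, bound by MEF2 factors, in TTN and MYBPC3.
MYOM1: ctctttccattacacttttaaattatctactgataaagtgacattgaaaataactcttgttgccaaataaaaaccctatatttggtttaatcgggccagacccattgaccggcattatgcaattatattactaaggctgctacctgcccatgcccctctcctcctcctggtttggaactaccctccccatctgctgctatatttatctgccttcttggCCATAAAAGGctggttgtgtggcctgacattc
TTN: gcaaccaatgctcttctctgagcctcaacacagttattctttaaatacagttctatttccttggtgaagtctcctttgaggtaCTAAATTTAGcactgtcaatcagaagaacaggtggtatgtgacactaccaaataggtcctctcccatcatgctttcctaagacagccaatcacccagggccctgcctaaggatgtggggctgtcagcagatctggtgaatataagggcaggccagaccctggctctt
MYBPC3: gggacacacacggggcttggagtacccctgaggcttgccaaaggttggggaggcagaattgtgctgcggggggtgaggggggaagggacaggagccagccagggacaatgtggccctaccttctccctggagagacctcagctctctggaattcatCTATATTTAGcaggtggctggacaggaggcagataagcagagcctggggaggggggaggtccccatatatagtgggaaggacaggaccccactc
The RefSeq table held 5 of the 6 genes, all but MYOM2, so MYOM1 is the only called gene with a promoter here. The TTN stretch lies inside the GENCODE 29 bounds of TTN (178525989 to 178830802), and that of MYOM1 overlaps its bounds (3066807 to 3220108). The RefSeq and GENCODE starts thus differ for both. Both strands were searched for the MCAT box of TEAD factors, spelled CATTCC. The box of GATA factors was spelled AGATAA. The TATA box was spelled TATAAA. The E-box was spelled CANNTG. The MEF2 and CArG boxes were searched by their usual forms, and no printed capitals come from more than 1 motif. MYOM1 held a CArG match beginning 32 bases before the start, a feature of 1.16% of 35116 promoters of this length. MEF2 matches began 167 bases before the start in TTN and 94 bases before it in MYBPC3, against 0.515% of all promoters. CATTCC was in none of TTN, MYBPC3, MYOM1 and OBSL1, and in MYOM3 at 110 bases before the start, with 11.9% of all promoters holding it. AGATAA was in MYBPC3 and at 2 places in MYOM1 (9.17% of promoters), CANNTG in all 5 (61.8%) and TATAAA in none (10.7%). A match of letters is not a measured binding site.

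Among the factors that act on such boxes, SRF was at 16.6, 13.1 and 17.8 TPM in the controls and 20.8, 18.8 and 18.1 TPM in MYH7B ASO replicates 2 to 4 (log2 fold change 0.28, limma adjusted p = 0.493). MEF2A averaged 80.9 and 44.3 TPM, a log2 fold change of -0.84 that did not pass (limma adjusted p = 0.0976), and MEF2C and MEF2D averaged 15.9 and 29.5 TPM against 19.7 and 27.1 TPM (limma adjusted p = 0.499 and 0.754). Of 16 transcription factors listed, TEAD1 and TEAD3 were called, both lower, by -0.76 and -1.80 on the log2 scale (limma adjusted p = 0.0316 and 0.00209), beside 1.48% of all genes called lower. The list median was -0.038, beside -0.044 for all tested genes. The TEAD1 call was lost when any 1 library was left out (limma adjusted p from 0.0633 to 0.132) and TEAD3 was called in all 6 such fits.

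Transcripts of proteins related to or bound by titin and the M-band were examined next. Of the 9 tested relatives of titin and the M-band proteins, none was called by limma, against 1.66% of all genes. The list median was -0.16, beside -0.044 for all tested genes. At a limma unadjusted p under 0.05 stood 2 of the 9, beside 15.2% of all tested genes. These were MYLK, smooth muscle myosin light chain kinase, with a log2 fold change of -1.38 (limma adjusted p = 0.0845), and CCDC141, whose gene overlaps the 5′ start of TTN on the same strand, with -0.47 (limma adjusted p = 0.315). Of 17 tested titin-binding partners, 3 were called lower and none higher, beside 1.48% and 0.181% of all genes, with a list median of -0.23. ANKRD1, a stretch-responsive repressor bound in the titin I-band, averaged 90.0 and 25.9 TPM. CMYA5, a large protein of the Z-disc region, averaged 28.5 and 12.5 TPM, and CRYAB, a small heat shock protein that protects titin, 459 and 282 TPM. Their log2 fold changes were -1.72, -1.12 and -0.70 (limma adjusted p = 0.0251, 0.0300 and 0.0268). ACTN2, TCAP, the muscle creatine kinase CKM and the ubiquitin ligases TRIM54, TRIM55 and TRIM63 of that list were not called.

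Of 10 tested thick filament genes, MYL2 and MYL4, the ventricular regulatory and atrial essential light chains, were called lower, by -1.96 and -1.46 on the log2 scale (limma adjusted p = 0.0121 and 0.00599), and the list median was -0.30. MYH7 of that list had a log2 fold change of -1.27 that did not pass (limma adjusted p = 0.148), and its groups overlapped. MYH6 had 0.14 (limma adjusted p = 0.788). Of all tested genes 1.48% were called lower, with a median of -0.044. Of 11 tested thin filament genes, the actins ACTA1 and ACTC1 were called lower, by -1.35 and -0.66 (limma adjusted p = 0.0156 and 0.0209), and the list median was -0.21. Of 16 tested sarcomere regulators, which are splicing, assembly and turnover factors and signalling kinases, PRKG1, a cyclic GMP kinase that phosphorylates titin, was called lower, by -1.44 (limma adjusted p = 0.0103), and the list median was -0.29. No member of these lists was called higher. When libraries were dropped in turn (6 fits), MYL4 passed in all, MYL2 and PRKG1 in 5, ACTA1 and ANKRD1 in 2, CMYA5 in 1 and CRYAB and ACTC1 in 0. MYL2 was lost without scrambled ASO replicate 1 (limma adjusted p = 0.0556) and PRKG1 without MYH7B ASO replicate 4 (0.0554).

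**Figure D3:**
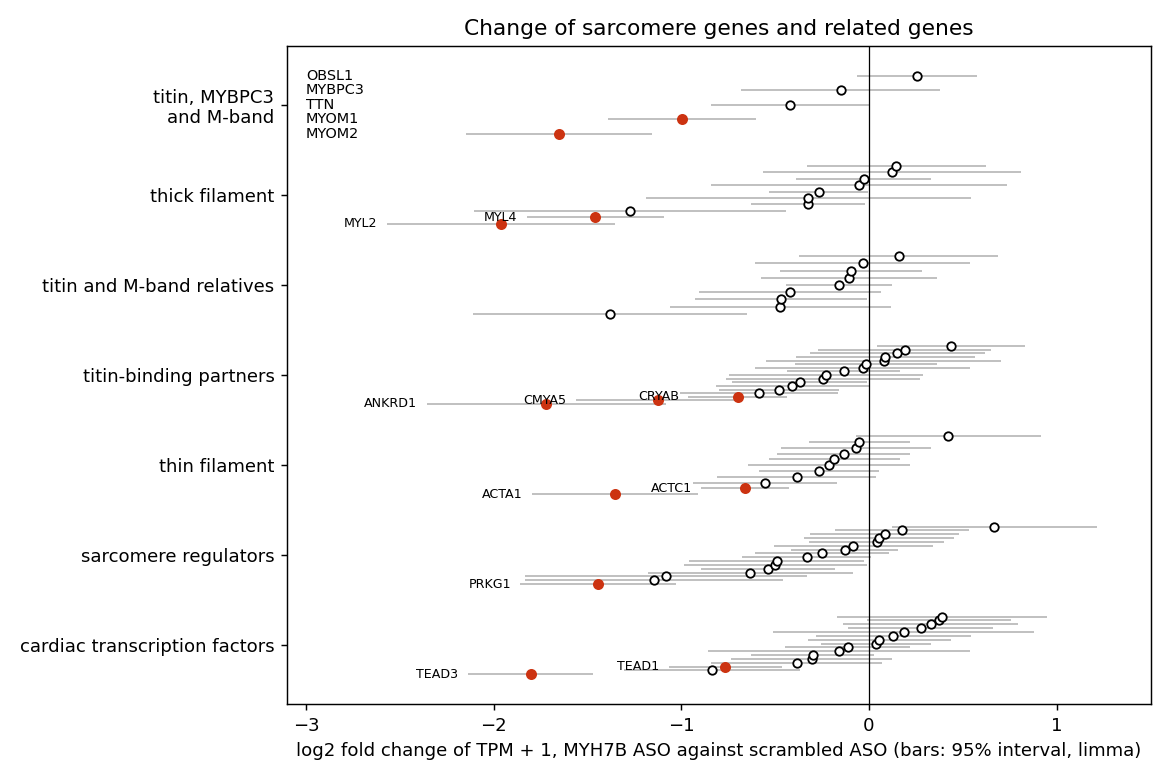
Log2 fold change of TPM + 1, MYH7B ASO against scrambled ASO (horizontal axis), for the tested genes of each list. Points are limma estimates, bars their 95% intervals, and filled red points had an adjusted p under 0.05. MYOM2 at -1.65 and MYOM1 at -0.996 were called, and TTN, MYBPC3 and OBSL1 were not.

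Across the 6 libraries the levels of TTN and MYOM1 had a Pearson correlation of 0.92 on the log2(TPM + 1) scale, MYOM1 and MYOM2 0.89, TTN and MYBPC3 0.75, and MYOM2 and OBSL1 -0.80. These points share the group difference and the libraries, and the correlations are a description. Of 7543 genes averaging at least 10 TPM, the 3 whose profile over these 6 libraries was most like MYOM2 were TNRC6A, DTWD1 and NUDT3 (Pearson r from 0.984 to 0.990). For MYOM1 they were MCC, SNHG14 and CWC27 (0.993 to 0.995), for TTN PCMTD2, NEDD4 and DENND4C (0.986 to 0.996) and for MYBPC3 MYO18A, SMIM19 and FABP3 (0.977 to 0.987). For OBSL1 they were DPCD, NDUFA4L2 and MLLT3 (0.989 to 0.998) and for MYOM3 C17orf75, DNAJC24 and MSANTD4 (0.981). Even MYOM3, barely present, thus had correlations this high when 7543 genes were searched over 6 libraries. These lists are therefore only a description.

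**Figure D4:**
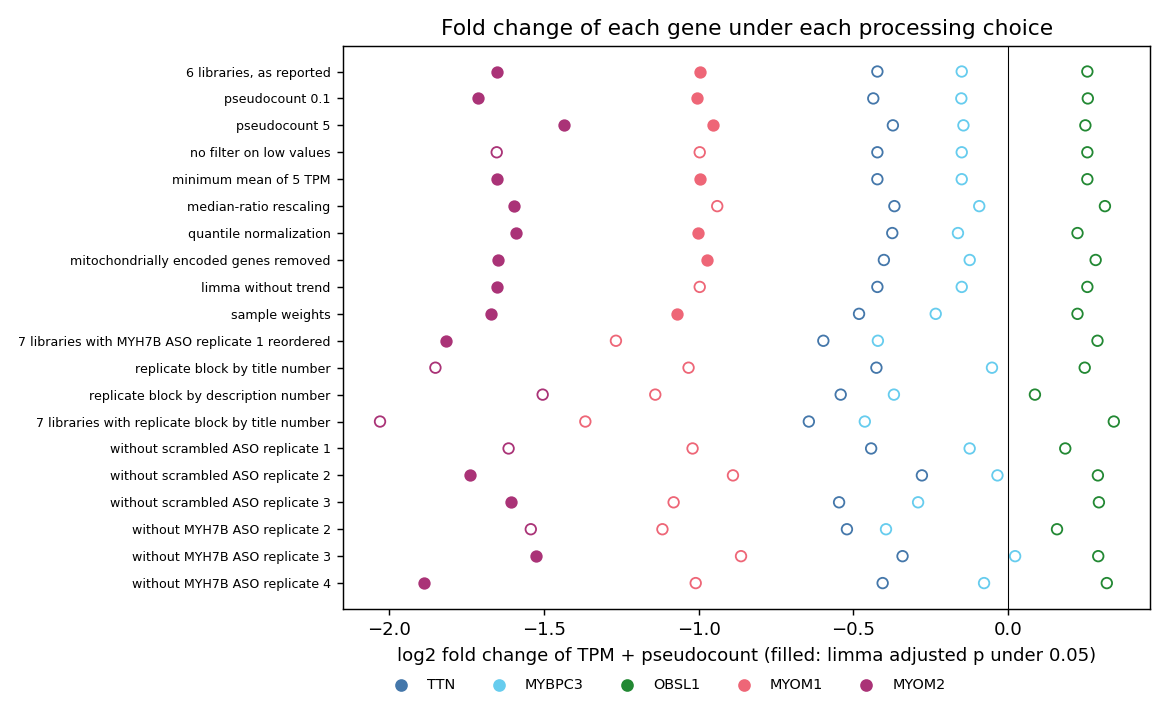
Log2 fold change of TTN, MYBPC3, OBSL1, MYOM1 and MYOM2 (horizontal axis) in the comparison as reported and under each of 19 other processing choices (rows). Filled points had a limma adjusted p under 0.05 and open points did not. MYOM2 and MYOM1 were negative and OBSL1 positive in all of them, MYOM2 was called in 13 and MYOM1 in 6 of the 19 alternatives, and TTN, MYBPC3 and OBSL1 in none.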

How the data were processed

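The authors deposited TPM per gene for 7 libraries, with each column summing to 1000000. No depth can be read from TPM, which leaves the depth unknown and allows no interval for counting error. The quantifier and annotation release are not given in the sources used here; the submitters' processing notes name the build GRCh38.p13 and DESeq2. The authors' deposited comparison table holds a mean normalized count (a signal), log2 fold changes and standard errors that the file name calls shrunken, a test score, and p-values with adjusted p-values.

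The column of MYH7B ASO replicate 1 held values in 58721 positions, the number of genes in GENCODE 29. In deposited order its median correlation with the other 6 libraries, across genes, was 0.408; with the sorted GENCODE 29 identifiers it was 0.955, and shifted by 1 position 0.416. The others correlated at 0.959 to 0.979.

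Genes averaging at least 1 TPM over the fitted libraries were tested with limma 3.58.1 (lmFit, eBayes with trend) in R 4.3.3 on log2(TPM + 1) without covariates. P-values were adjusted by Benjamini-Hochberg over all tested genes, and a gene is called where this value is below 0.05. Fold changes on that scale understate the change of low genes. The test was checked on simulated data. Ratios used 2-sided exact permutation tests over libraries. Of the 8 ratios adjusted together, 1 is not reported here. Python 3.11.15 with pandas 2.3.3, numpy 2.4.6 and matplotlib 3.10.9 made tables and plots. Coordinates of genes come from GENCODE 29 (GRCh38), and the printed gene identifiers are the deposited ones. For MYBPC3, MYOM2, MYOM3 and OBSL1 the identifier in GENCODE 29 is of another version. For TTN and MYOM1 the versions are the same.

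The members, lists and tests were chosen with earlier results of these data known. Genes were named if they were members, called members of a gene or marker list, a small set of reference genes, or among the 3 most similar profiles per member. MYLK, CCDC141, SRF, the MEF2 genes, INHA, PDGFRA, CNN1, COL1A1, COL3A1, MYF5, MYH8, the uncalled titin-binding partners and the myosin-binding protein relatives were named in addition, after their values were seen. Alternatives were other pseudocounts, filters, scalings and variance settings, the reordered replicate, replicate blocks and leaving out each library. Titles share the numbers 2 and 3 between the groups compared, and no label says that a number marks a shared culture.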

Additional observations from a re-analysis of the deposited data

How the results depend on the processing

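Over 19 alternatives, MYOM1, MYOM2 and TTN kept a negative and OBSL1 a positive log2 fold change. MYBPC3 was negative in 18 and ranged from -0.39 to 0.022 when 1 library was left out, the last without MYH7B ASO replicate 3. TTN, MYBPC3 and OBSL1 were called in none. The causes of the lost calls below were not tested. Keeping all genes above 0 TPM, given below as no filter, raised the number tested to 32966.

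MYOM1 was -0.996 and not called with no filter (limma adjusted p = 0.125) or without the variance trend (0.0912), -0.94 with median-ratio rescaling (0.0509) and -1.27 with 7 libraries (0.0918). MYOM2 was -1.65 and not called with no filter (0.0779). Under the replicate block by title number MYOM1 and MYOM2 were -1.03 and -1.85 (limma adjusted p = 0.331 for both), by description number -1.14 and -1.50 (0.720 for both), and with 7 libraries and the title block, added after the data were seen, -1.37 and -2.03 (0.221 and 0.108). Both 6-library blocks rest on 2 pairs, whose same-number correlations of deviations were 0.077 and 0.11 by title and -0.075 and -0.042 by description, and pairing of the libraries could not be established. Leaving out 1 library gave -1.12 to -0.86 for MYOM1, -1.89 to -1.53 for MYOM2, and 0 to 1 members called.

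The count of members called was 2 as reported, 1 with median-ratio rescaling, without the trend or with 7 libraries, and 0 with no filter or under any replicate block. All genes called numbered 265 as reported, 40 with no filter (2892 at an unadjusted p under 0.05), 150 without the trend, 170 with 7 libraries, 53 to 149 when 1 library was left out, and 0 in limma under the title block, the description block and the title block with 7 libraries (1718, 1096 and 1773 at an unadjusted p under 0.05). The split of 29 higher and 236 lower became 56 and 221 with median-ratio rescaling and 55 and 202 with quantile normalization. With 7 libraries the thin filament list had 0 called genes, the transcription factor list 1 and the titin-binding list 2, with CRYAB lost (limma adjusted p = 0.135).

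Among ratios, MYOM1 relative to TTN was -0.66 with 7 libraries and reached an exact permutation p of 0.0286. MYBPC3 relative to TNNT2 changed sign to -0.27 with 7 libraries, -0.16 without scrambled ASO replicate 3 and -0.076 without MYH7B ASO replicate 2, and ranged up to 0.14 when 1 library was left out. TTN relative to ACTN2 then ranged from -0.017 (without MYH7B ASO replicate 2) to 0.10. The MYOM1 to TTN difference was -0.60 with the replicate block (title numbers).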

Other observations

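In the authors' deposited table TTN had a mean normalized count of 30539, ranking at position 74 of all genes, MYBPC3 18129 (151), OBSL1 17036 (158), MYOM1 10422 (291), MYOM2 2282 (2067) and MYOM3 24.5 (16040). The normalized count per TPM, relative to MYOM1, was 9.99 for TTN, where the longest coding transcripts in GENCODE 29 have a length ratio of 18.7. For MYBPC3 it was 1.34 beside a length ratio of 0.723, for MYOM2 0.669 beside 0.858, for OBSL1 1.05 beside 0.999 and for MYOM3 1.04 beside 0.993.

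The share of mitochondrially encoded transcripts was 27.4% to 33.6% in the 6 libraries of the comparison and 17.2% in the reordered MYH7B ASO replicate 1. In that library the fibroblast markers summed to 4141 TPM, within the range of the controls, and the cardiomyocyte markers to 2785 TPM, below all 6 others. MYOM1, MYOM2, MYOM3, TTN and MYBPC3 each had their lowest level of the 7 libraries there.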
